A study of Mus musculus with 10 samples.

Results

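The genes described here are transcripts of bone-forming stroma and of blood vessels, read in B cells sorted from mouse bone marrow. The rule listed 10 genes, of which the deposited table held 8: the collagen genes Col1a1, Col1a2 and Col3a1, the matrix glycoprotein genes Spp1 and Sparc, the chemokine gene Cxcl12, and the endothelial genes Cdh5 and Pecam1. No row was found for Bglap or Pdgfrb, which were not analysed here. The 8 members were read among 14450 genes in 10 RNA-seq libraries. They comprised 5 libraries of Chat+ and 5 of Chat- mature B cells, taken by cell sorting out of marrow from Chat-GFP mice at steady state. Both groups carry the reporter, named for the gene of the acetylcholine-synthesising enzyme, and neither was treated. The labels give no age, no number of animals and no gating scheme, and do not say whether libraries came from separate animals, so a p-value speaks only to how far these libraries spread. The labels call the sorted cells mature B cells, and all 10 genes of the B cell identity list were in the table, with a summed level of 28030 to 32100 counts per 1000000 reads (CPM) per library. The depth estimated from the table was 21530000 to 30060000 reads per library. Chat- replicate 4 stood apart in its mitochondrial share and in the number of genes at the lowest value, both given below, so each difference of a member between the groups is given with and without it.

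Type I and type III collagens are fibrous proteins secreted by osteoblasts and fibroblasts, and each chain carries a long run of triplets that begin with glycine. Osteopontin (Spp1) and osteonectin (Sparc) are deposited with collagen in bone matrix, although macrophages also make osteopontin. In marrow, reticular and perivascular stromal cells secrete CXCL12, which holds B-lineage cells near them through the receptor CXCR4. VE-cadherin (Cdh5) joins endothelial cells to one another, whereas PECAM1 (CD31) is carried by endothelium, platelets and many leukocytes, B cells included. B cells are not among the usual sources of fibrillar collagen.

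The collagen transcripts are shown first, because the glycine repeat is the feature that the 3 collagen members share at the sequence level. Reading frames were taken from the longest coding transcript in the GRCm38 annotation of GENCODE release M21. The longest unbroken run of GGN codons once in every 3 codons held 338 triplets in Col1a1, 339 in Col1a2 and 344 in Col3a1, or 69.8%, 74.1% and 70.5% of the coding sequence. The first 15 triplets of each run (135 bases, 5′ to 3′, on the plus strand, introns spliced out) have the leading glycine codon of each triplet in capitals. Glycine codons at other places in a triplet are in lower case. They span chr11:94939451-94940144 for Col1a1, chr6:4512406-4515655 for Col1a2 and chr1:45323762-45325849 for Col3a1.
Col1a1: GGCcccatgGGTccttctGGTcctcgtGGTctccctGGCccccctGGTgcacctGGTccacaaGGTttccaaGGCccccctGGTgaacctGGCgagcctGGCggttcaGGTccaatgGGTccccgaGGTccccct
Col1a2: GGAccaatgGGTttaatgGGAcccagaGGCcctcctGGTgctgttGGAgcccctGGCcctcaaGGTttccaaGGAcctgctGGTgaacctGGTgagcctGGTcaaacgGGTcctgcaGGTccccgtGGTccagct
Col3a1: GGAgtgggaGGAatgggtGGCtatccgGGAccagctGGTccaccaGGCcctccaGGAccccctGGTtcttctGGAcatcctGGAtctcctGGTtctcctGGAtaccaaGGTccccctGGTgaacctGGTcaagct

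The shared codon pattern left few words of 31 bases in common. In Col1a1 0% of 31-base words also occurred in another gene's transcripts, in Col1a2 0.0639% did, and in Col3a1 1.12% did. Among the other members the share of such words was 0% for Cdh5, 0.11% for Cxcl12, 1.44% for Sparc, 2.11% for Pecam1 and 14.3% for Spp1, most of the last in the predicted gene Gm42793.

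Osteocalcin is the opposite case, and its copies are shown because short reads can match more than one of them. Bglap lies at chr3:88383501-88384464 on the minus strand, and 62.9% of its 31-base words recurred in its copies. Its coding sequence of 285 bases differed from that of Bglap2 at 4 bases and from that of Bglap3 at 13 bases. Bglap3, with 22.5% of its words shared, had a row in the table and ran from 0.425 to 4.41 CPM, a level that is uncertain as far as reads from the copies could be divided. The last 150 coding bases of Bglap and Bglap3 are given 5′ to 3′ on the transcript strand, with the 8 bases that differ between them in capitals (chr3:88383638-88383993 and chr3:88368759-88369114, minus strand, GRCm38).
Bglap: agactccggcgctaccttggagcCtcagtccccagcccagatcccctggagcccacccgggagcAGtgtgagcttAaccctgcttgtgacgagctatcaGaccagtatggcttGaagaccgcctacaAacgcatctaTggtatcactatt
Bglap3: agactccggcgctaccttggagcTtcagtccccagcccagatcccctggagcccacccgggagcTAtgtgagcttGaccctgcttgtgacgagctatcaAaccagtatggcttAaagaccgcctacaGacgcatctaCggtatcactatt

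The bone matrix genes were present at low to middling levels in every library, and they varied far more between libraries than between the groups. Col1a1, an α chain of type I collagen, lies at chr11:94936224-94953042 on the plus strand with 51 exons. In Chat+ replicates 1 to 5 it was at 16.3, 42.4, 40.8, 8.40 and 38.5 CPM, and in Chat- replicates 1 to 5 at 12.4, 11.0, 8.67, 110.8 and 7.59 CPM. Chat+ replicates 2, 3 and 5 and Chat- replicate 4 were high, the other 6 libraries were low, and the groups overlapped. The Chat+ libraries averaged 29.3 ± 15.8 CPM, and those of Chat- 30.1 ± 45.2 CPM (SD, n = 5 each). On the log2 scale the difference, Chat+ minus Chat-, was 0.64 ± 0.69 (SE), with a 95% interval of -0.87 to 2.14 and an adjusted p of 0.999 (limma, Benjamini-Hochberg over all 14450 genes). The linear means were level because 1 Chat- library held most of that group's total. In RNA from pooled sorted cells, fewer cells of a type and less RNA per cell cannot be told apart.

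Col1a2, the partner chain of type I collagen (chr6:4504814-4541544, plus strand, 52 exons), was at 13.8, 34.0, 32.6, 8.16 and 30.7 CPM in Chat+ replicates 1 to 5. In the Chat- replicates it was at 8.12, 12, 7.82, 99.2 and 8.45 CPM. The same 4 libraries were high as for Col1a1, and the groups overlapped. Its log2 difference was 0.51 ± 0.66 (limma adjusted p = 0.999). Col3a1, the chain of type III collagen found in reticular fibres (chr1:45311538-45349706, plus strand, 51 exons), was at 13.8, 32.8, 41.3, 8.93 and 31.6 CPM in the Chat+ libraries. It was at 8.56, 10.3, 7.12, 92.7 and 6.36 CPM in the Chat- libraries. Here too Chat- replicate 4 stood above every Chat+ library and the other 4 Chat- libraries lay low, with a log2 difference of 0.76 ± 0.68 (limma adjusted p = 0.999).

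Spp1 (chr5:104435118-104441050, plus strand, 6 exons) was at 7.39, 13.6, 23.8, 4.81 and 13.3 CPM in Chat+ and at 3.55, 6.0, 3.17, 49.0 and 4.43 CPM in Chat- replicates 1 to 5. Its order was close to that of the collagens, with Chat- replicate 4 highest and the groups overlapping. The log2 difference was 0.66 ± 0.68 (limma adjusted p = 0.999). Sparc, whose product binds collagen and calcium (chr11:55394500-55423183, minus strand, 10 exons), was at 12.3, 24.0, 24.5, 7.60 and 23.9 CPM in Chat+. In Chat- it was at 5.79, 6.61, 5.50, 51.9 and 5.0 CPM. Every Chat+ library was above 4 of the 5 Chat- libraries and below the fifth. Sparc had the largest difference of the 8 members, 0.90 ± 0.60 on the log2 scale (unadjusted p = 0.156, limma adjusted p = 0.999).

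**Figure D1:**
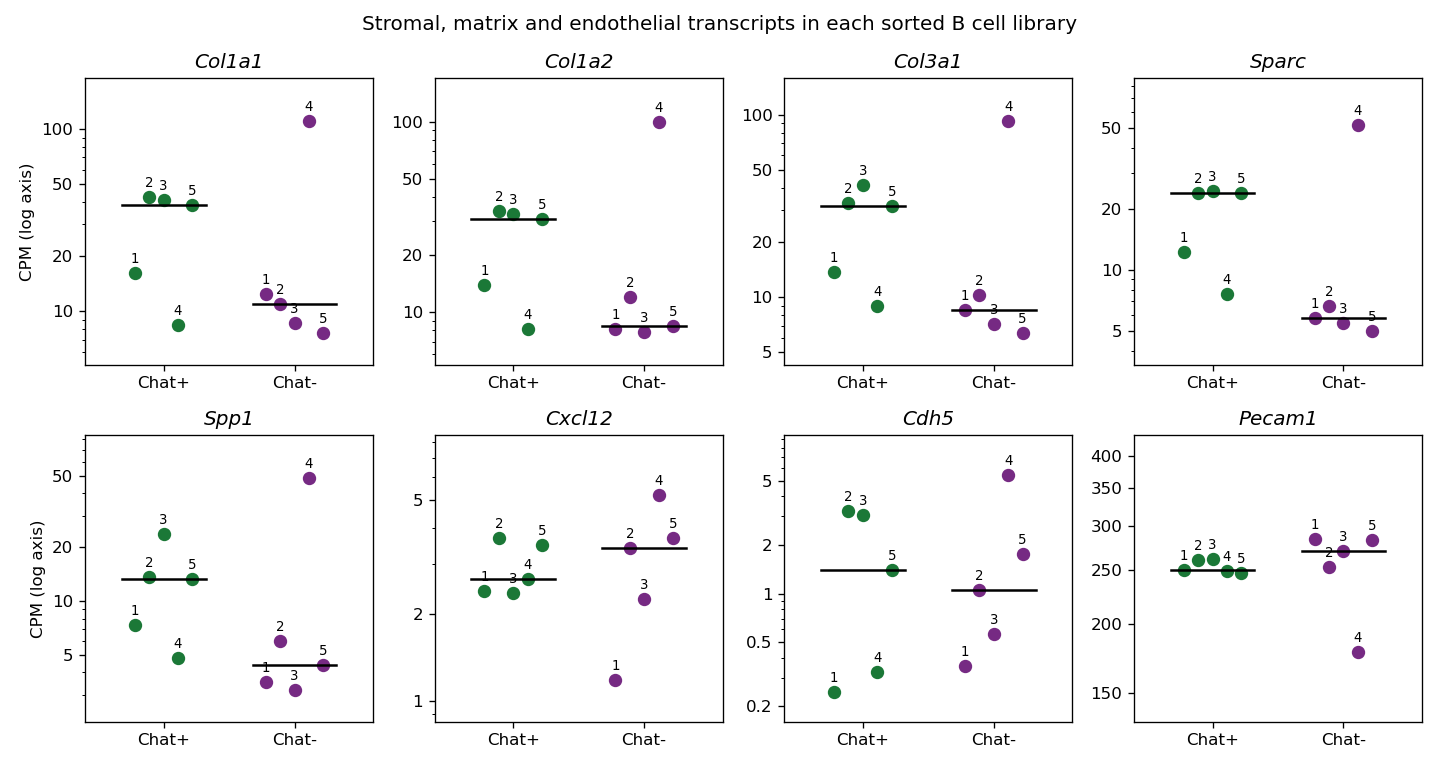
CPM on a log axis of each of the 8 members in each library (numbered points, green for Chat+, purple for Chat-; horizontal bars are group medians, n = 5). Chat- replicate 4 is the highest point for 7 members and the lowest for Pecam1, and Pecam1 lies far above the others.

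The stromal and endothelial members did not share this pattern closely. Cxcl12, on chromosome 6 (chr6:117168535-117181367, plus strand, 4 exons), was at 2.41, 3.69, 2.36, 2.65 and 3.49 CPM in Chat+ and at 1.18, 3.41, 2.26, 5.20 and 3.69 CPM in Chat-. All Chat+ libraries lay inside the Chat- range. The log2 difference was 0.02 ± 0.40, with a 95% interval of -0.85 to 0.89 (limma adjusted p = 0.999). By the estimated depth these levels rest on 30 to 112 reads per library.

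Cdh5, the most endothelial of the members (chr8:104101625-104144511, plus strand, 12 exons), was at 0.245, 3.24, 3.06, 0.326 and 1.40 CPM in Chat+ and at 0.355, 1.05, 0.564, 5.44 and 1.76 CPM in Chat-. It was the lowest member per kilobase, and its levels rest on an estimated 6 to 117 reads per library, so the lowest values are imprecise. The part of counting error in its spread was not tested. Both groups held low and high libraries and they overlapped. The log2 difference was -0.12 ± 0.83, with a 95% interval of -1.92 to 1.68 (limma adjusted p = 0.999).

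Pecam1 (chr11:106654217-106750628, minus strand, 16 exons) was abundant and even. It was at 250.1, 260.4, 260.9, 248.3 and 246.7 CPM in Chat+ and at 283.8, 253.2, 270.2, 177.4 and 282.5 CPM in Chat-. Chat- replicate 4 was the lowest library and the Chat+ libraries lay within the range of the Chat- ones. The means were 253.3 ± 6.83 and 253.4 ± 44.2 CPM (SD, n = 5 each), and the log2 difference was 0.02 ± 0.12, with a 95% interval of -0.25 to 0.29 (limma adjusted p = 0.999).

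Per kilobase of transcript, the members fell on 3 tiers. Pecam1 averaged 73.6 CPM per kilobase over the 10 libraries, and by mean CPM it lay at the 94.9th percentile of all genes. Spp1, Sparc, Col1a1, Col1a2 and Col3a1 averaged 8.57, 7.27, 5.01, 4.77 and 4.55 CPM per kilobase. These 5 means are drawn up by Chat- replicate 4, and their medians were 4.44, 4.32, 2.42, 2.42 and 2.17 CPM per kilobase. Within a library, Sparc was above its neighbour Col1a1 per kilobase in 10 of 10 libraries, by 1.21 to 2.33 times. The order of the other neighbours in that tier changed between libraries: Spp1 was above Sparc in 4 of 10, Col1a1 above Col1a2 in 6 and Col1a2 above Col3a1 in 7. Cxcl12 and Cdh5 averaged 0.539 and 0.436 CPM per kilobase, with Cxcl12 the higher in 7 of 10 libraries.

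None of the 8 members passed an adjusted p of 0.05 (limma), where the background was 0.00692% of all genes, that is 1 of 14450. At an unadjusted p under 0.05 the count of members was 0 of 8, against 4.51% of all genes. The fitted difference was above 0 for 7 of 8 members, against 57.0% of all genes, with a median of 0.57 against 0.04 for all genes. The bone matrix genes among them varied together, so this is not a count of independent genes. For no member did the groups separate, although 1.12% of all genes separated with Chat+ above and 0.304% with Chat- above.

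Chat- replicate 4 held the highest level of the 10 libraries for 7 of 8 members, where 22.1% of all genes had it highest, and the lowest for Pecam1, where 31.6% had it lowest. The bone matrix genes among the 7 varied together and are not independent of each other. Relative to the median of the other 4 Chat- libraries it was 11.3-fold for Col1a1, 12-fold for Col1a2, 11.8-fold for Col3a1, 12.3-fold for Spp1 and 9.20-fold for Sparc. The ratio was 6.72 for Cdh5, 1.84 for Cxcl12 and 0.642 for Pecam1. Of the rows of the table, 1213 sat at its lowest value in this library, whereas 62 to 682 did in the remaining 9, and 11.9% of its CPM was from mitochondrial genes, against 2.27% to 3.85%. The part of these properties in the members' levels was not tested.

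Without Chat- replicate 4, the bone matrix genes had levels in Chat+ that were 2.3 to 2.9 times those in Chat- on the fitted scale, although 0 of 8 members passed the adjusted threshold, which 0.0415% of all genes did (limma, 6 genes). Sparc averaged 18.5 ± 7.96 CPM in Chat+ (n = 5) and 5.72 ± 0.674 CPM in the remaining Chat- libraries (n = 4), a log2 difference of 1.54 ± 0.33 or 2.90-fold, with a 95% interval of 1.75 to 4.80 (unadjusted p = 0.000602, limma adjusted p = 0.147). All 5 Chat+ libraries were then above all 4 Chat- libraries for Sparc, as for 2.35% of all genes. For Col1a1, Col1a2, Col3a1 and Spp1, 4 of the 5 Chat+ libraries were above the 4 Chat- libraries, with Chat+ replicate 4 the exception. The log2 differences were 1.34 ± 0.43 for Col1a1, 1.20 ± 0.39 for Col1a2, 1.46 ± 0.40 for Col3a1 and 1.37 ± 0.41 for Spp1, with limma adjusted p of 0.437, 0.441, 0.277 and 0.331.

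The other members moved less when that library was left out. Cxcl12 differed by 0.24 ± 0.37 on the log2 scale (limma adjusted p = 0.937), Cdh5 by 0.40 ± 0.76 (limma adjusted p = 0.955) and Pecam1 by -0.10 ± 0.07 (limma adjusted p = 0.842). The sign turned for Cdh5 and for Pecam1, and 7 of 8 members lay above 0, against 49.6% of all genes. In the 9 libraries, 5 of 8 members, the 5 bone matrix genes, reached an unadjusted p under 0.05, where 5.36% of all genes did so in the same direction. These 5 genes rose and fell together (pairwise Pearson r of 0.920 to 0.984 in the 9 libraries). The counts of members are therefore not counts of independent genes. The median difference of the 8 members was 1.27, and that of all genes was 0.00 on the log2 scale.

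**Figure D2:**
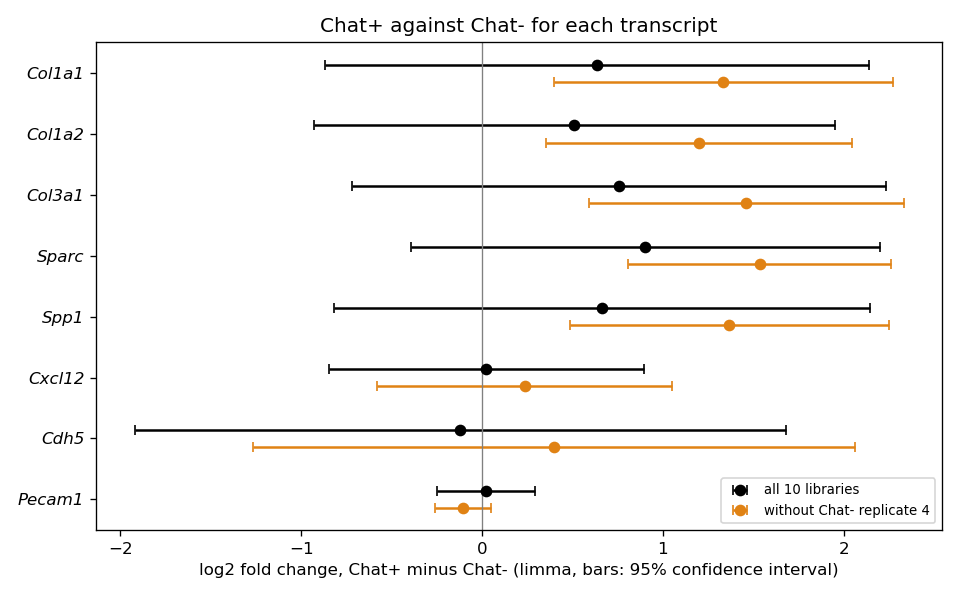
Log2 difference, Chat+ minus Chat-, of each member with its 95% interval (limma), in all 10 libraries and without Chat- replicate 4. Intervals of all 8 members cross 0 in the 10 libraries, and those of the 5 bone matrix genes lie above 0 in the 9, for example 1.54 for Sparc.

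The 5 bone matrix genes kept nearly constant proportions while their total changed. Their sum was 63.5, 146.9, 163.0, 37.9 and 138.1 CPM in Chat+ and 38.4, 45.9, 32.3, 403.6 and 31.8 CPM in Chat- replicates 1 to 5. Within that sum Col1a1 made up 26.4% ± 2.93 (SD over 10 libraries, range 22.2% to 32.3%), Col1a2 23.1% ± 2.20 and Col3a1 22.6% ± 1.37. Sparc made up 16.3% ± 2.20 and Spp1 11.6% ± 2.0. Without Chat- replicate 4 these shares averaged 26.3%, 23.0%, 22.5%, 16.7% and 11.6%. The ratio of Col1a1 to Col1a2 per kilobase was 1.04 ± 0.168, from 0.810 to 1.38 (1.04 ± 0.177 without that library), while the level of each gene spanned 14.6-fold and 12.7-fold between its lowest and highest library.

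Over the 10 libraries the log2 values of these genes had pairwise Pearson r of 0.956 to 0.990 in 10 pairs, and of 0.920 to 0.984 without Chat- replicate 4. These correlations are a description, since values from 1 library share its depth and composition. Cdh5 followed the bone matrix genes with r of 0.706 to 0.806 (0.558 to 0.71 without that library), and Cxcl12 with 0.483 to 0.615 (0.200 to 0.395). Pecam1 ran the other way, with r of -0.775 to -0.719 (-0.532 to -0.361). Between its lowest and highest library Pecam1 spanned only 1.6-fold, Cxcl12 4.40-fold and Cdh5 22.2-fold.

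**Figure D3:**
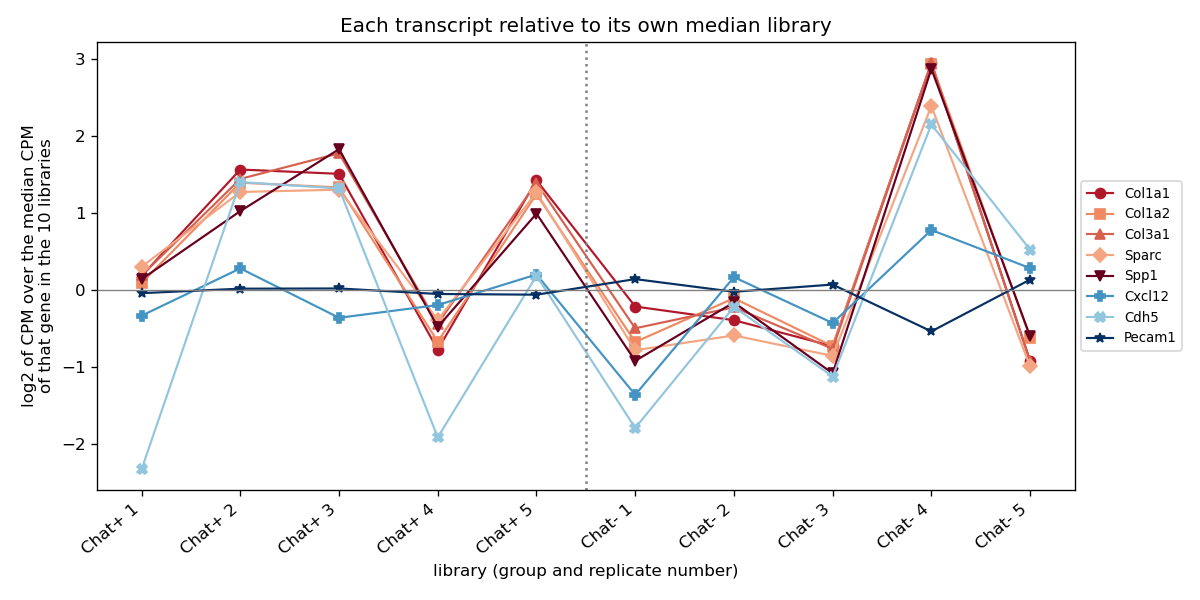
Level of each member in each library relative to that member's median over the 10 libraries (log2 axis, 1 line per member). The 5 bone matrix genes run together and peak in Chat- replicate 4, Cdh5 follows more loosely, and Pecam1 stays near its median except in that library.

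Upstream sequence is shown for a pair of bone matrix members that varied together and for Cxcl12, which varied differently. Promoters came from RefSeq on GRCm38.p6 and were read for 6 of the 10 listed genes (Col1a2, Col3a1, Spp1, Sparc, Cxcl12 and Bglap). Pdgfrb was left out of the search. The 250 bases before the start were searched on both strands. The letters CCAAT stood in 33.9% of 32851 promoters, Spp1 among them. The TATA box letters TATAAA stood in 12.4%, among them Spp1, outside the stretch printed, and Col3a1. The GC box letters GGGCGG stood in 32.7%, among them Cxcl12. No match of one motif overlapped a match of another in these 3 windows, and such matches describe letters only. A further Spp1 promoter, inside the gene and ending at chr5:104436191, held none of the 3 motifs in its window and is not printed. The last 120 bases before the start are printed 5′ to 3′ with matches in capitals, some on the opposite strand (chr5:104434991-104435110, chr1:45311418-45311537 and chr6:117168415-117168534, all plus strand).
Spp1: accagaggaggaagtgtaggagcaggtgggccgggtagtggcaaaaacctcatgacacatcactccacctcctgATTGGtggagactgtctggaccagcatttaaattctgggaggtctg
Col3a1: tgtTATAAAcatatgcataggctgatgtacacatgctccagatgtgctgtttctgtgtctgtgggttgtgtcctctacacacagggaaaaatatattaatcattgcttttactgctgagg
Cxcl12: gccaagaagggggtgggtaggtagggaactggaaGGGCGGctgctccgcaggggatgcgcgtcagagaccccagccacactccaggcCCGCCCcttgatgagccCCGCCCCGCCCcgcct

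Genes whose log2 values were most like those of a member were sought among 11082 protein-coding genes with a mean of at least 1 CPM. The search used the 10 libraries and left out the members and provisional symbols (starting with Gm or ending in Rik). For Col1a1 the nearest genes were App (r = 0.989), Nfib (0.980) and Krt76 (0.976), with r of 0.982, 0.968 and 0.959 without Chat- replicate 4. For Spp1 they were Krt76 (0.976), Col12a1 (0.970) and C1qa (0.969), with 0.959, 0.974 and 0.941 without it. For Cdh5 they were Ankrd28 (0.950), Ddx58 (0.930) and Taf9b (0.918), with 0.958, 0.899 and 0.881 without it. For Cxcl12 they were Ehd3 (0.919), Sema6b (0.873) and Tmem185a (0.855), with 0.886, 0.833 and 0.86 without it. The genes nearest to Pecam1 were Hmgn1 (0.970), Mrpl46 (0.969) and Casz1 (0.965), and without that library r was 0.768, 0.765 and 0.927. App, the gene nearest to Col1a1 and the source of the amyloid precursor protein, was at 61.0 CPM in Chat- replicate 4, at 14.4 to 41.0 CPM in Chat+ and at 13.7 to 19.0 CPM in the other Chat- libraries.

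Other genes of the same cell types were read from lists, and no gene of any list passed the adjusted threshold with or without Chat- replicate 4. For the list counts given from here on, 57.0% of all genes had a difference above 0 in the 10 libraries. Without Chat- replicate 4 it was 49.6%, and that library was the highest for 22.1% of all genes. Of 22 further fibroblast and extracellular matrix genes, 21 were in the table and 17 had a difference above 0, with a median of 0.31 in the 10 libraries and 0.89 without Chat- replicate 4. Their sum was 33.3 to 94.5 CPM in Chat+, 33.6 to 45.7 CPM in 4 Chat- libraries and 234.0 CPM in Chat- replicate 4, which was the highest library for 19 of the 21. Fibronectin (Fn1) was at 11.4 to 34.5 CPM in Chat+, at 11.7 to 19.2 CPM in 4 Chat- libraries and at 65.8 CPM in the fifth. Col5a3, a minor fibrillar collagen chain, went the other way from the collagen members. It was named for the smallest p of its list, and was at 1.46 ± 0.904 CPM in Chat+ and at 7.51 ± 3.69 CPM in Chat-. The groups did not overlap, as for 0.304% of all genes with Chat- above. The log2 difference was -2.27 ± 0.46 (limma adjusted p = 0.221, and 0.150 without Chat- replicate 4).

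Of 20 further osteoblast and bone matrix genes, 9 were in the table, and 5 of these had a difference above 0 (median 0.01, and 0.31 without Chat- replicate 4). Biglycan (Bgn), a matrix proteoglycan, was at 1.92 to 12.6 CPM in Chat+, at 1.20 to 3.37 CPM in 4 Chat- libraries and at 26.0 CPM in Chat- replicate 4. Periostin (Postn), another matrix protein of bone, had the same order of ranges, at 1.14 to 8.60, 1.14 to 2.88 and 19.0 CPM. Alkaline phosphatase (Alpl) did not peak in that library, where it was at 1.35 CPM, with 2.34 ± 0.384 CPM in Chat+ and 1.47 ± 0.603 CPM in Chat-. Of the 7 cartilage markers only Sox9 was in the table, at 8.70 CPM in Chat- replicate 4 and at 0.0353 to 2.93 CPM in the other libraries.

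Of 18 further markers of CXCL12-abundant and perivascular stroma, 10 were in the table and 7 had a difference above 0 (median 0.39), or 8 without Chat- replicate 4 (median 0.78). Their sum was 48.8 CPM in Chat- replicate 4, the highest library for 6 of the 10 genes, and 15.3 to 22.6 CPM in the other 9. The leptin receptor (Lepr), a defining marker of those cells, was listed at 0 in Chat- replicate 4 and reached 1.75 CPM at most. Vcam1, an adhesion molecule that B-lineage cells bind through integrins, was at 4.27 ± 0.846 CPM in Chat+ and at 6.53 ± 1.49 CPM in Chat- (limma adjusted p = 0.999). Of 27 further endothelial genes, 9 were in the table, 5 with a difference above 0 (median 0.07), or 6 without Chat- replicate 4 (median 0.55). The defining genes Flt1, Tek, Emcn, Cldn5 and Erg had no row found there. The endothelial sum was 87.6 to 127.7 CPM, highest in Chat- replicate 4. That library was the highest for 5 of the 9 genes, against 22.1% of all genes. These were Kdr, Eng, Plvap, Cav1 and Cd34, all but the last named after their values were seen. Kdr was at 8.36 CPM in that library, at 0.200 to 2.15 CPM in the other Chat- libraries and at 0.816 to 5.38 CPM in Chat+. Fabp4, by contrast, was listed at 0 in that library. Most of the sum was Icam2, which leukocytes share and which was at 72.8 to 96.5 CPM. The vascular and progenitor marker Cd34 was at 2.37 to 7.0 CPM in Chat+ and 4.94 to 14.1 CPM in Chat-.

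Monocyte and macrophage markers were highest in the same 4 libraries as the bone matrix sum. Of 19 listed genes, 16 were in the table and none was at 0 in any library. Their sum was 86.9, 133.2, 146.0, 94.3 and 127.2 CPM in Chat+ and 81.1, 88.7, 69.8, 279.8 and 90.4 CPM in Chat- replicates 1 to 5. The 4 libraries with 312 to 1213 genes at the lowest value, 3 Chat+ and 1 Chat-, had the 4 highest bone matrix sums (138.1 to 403.6 CPM), and the other 6 had 62 to 169 such genes and sums of 31.8 to 63.5 CPM. The part of macrophage content or of library quality in the matrix levels was not tested. Lyz2, a lysozyme of myeloid cells, was at 87.4 CPM in Chat- replicate 4, at 16.0 to 24.2 CPM in the other Chat- libraries and at 21.7 to 51.4 CPM in Chat+. The complement gene C1qb was at 12.7, 3.20 to 6.81 and 6.69 to 11.8 CPM in the same order.

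The marker sums of further marrow cells did not follow the bone matrix sum. The 12 neutrophil genes summed to 23.1 to 145.9 CPM in Chat+ and 47.4 to 122.3 CPM in Chat-, with the lowest sum in Chat+ replicate 3, where the matrix sum was 163.0 CPM. The 10 erythroid genes summed to 562.6 to 927.4 CPM in Chat+ and 486.4 to 1139 CPM in Chat-. The 7 osteoclast genes found of 10 summed to 199.3 to 238.7 CPM in Chat+, and their sum was lowest in Chat- replicate 4 at 161.5 CPM. Most of the sum came from Acp5 (tartrate-resistant acid phosphatase). Chat- replicate 4 was still the highest library for 2 of the 7, against 22.1% of all genes. These were Ctsk and Tnfrsf11a, named after their values were seen. Of 12 megakaryocyte and platelet genes, 5 were in the table, each listed at 0 in at least 1 library, and they summed to 1.82 to 8.91 CPM. The median log2 difference was -0.20 for the neutrophil, 0.06 for the erythroid, -0.13 for the osteoclast, -0.72 for the megakaryocyte, 0.14 for the macrophage and -0.05 for the B cell identity genes. Without Chat- replicate 4 it was 0.49 for the macrophage genes, 13 of 16 above 0, and -0.28 for the megakaryocyte, -0.23 for the neutrophil, -0.02 for the erythroid, -0.12 for the osteoclast and -0.09 for the B cell identity genes.

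**Figure D4:**
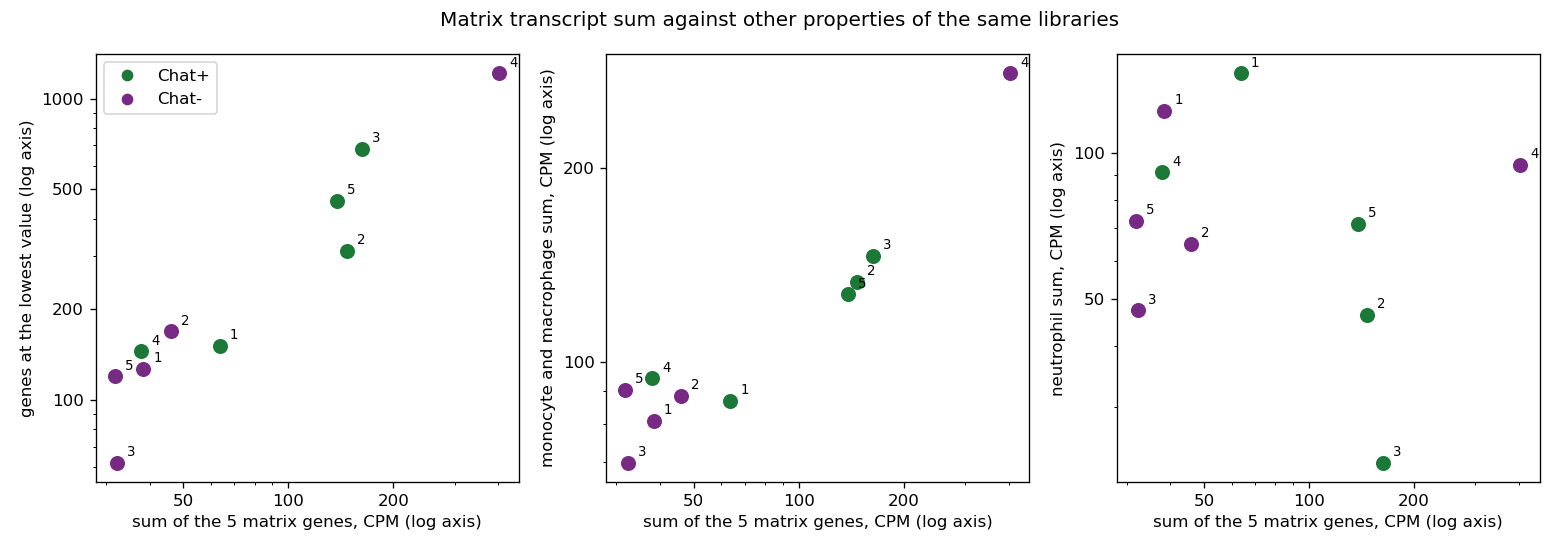
Sum of Col1a1, Col1a2, Col3a1, Spp1 and Sparc (x, CPM, log axis) against the number of genes at the lowest table value, the macrophage marker sum and the neutrophil marker sum (y, log axes) in the 10 numbered libraries, green for Chat+ and purple for Chat-. The 4 libraries with matrix sums of 138.1 CPM or more are also highest in the first 2 panels, and no such order is seen for neutrophil markers.

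Enzymes and chaperones that fold and crosslink collagen were read because collagen-secreting cells need them, although many cells express them. Of 23 listed, 19 were in the table and 11 had a difference above 0 (median 0.08), or 14 without Chat- replicate 4 (median 0.14). As with the collagen members, Chat- replicate 4 was the highest library for 11 of the 19, against 22.1% of all genes. The sum of the list ran otherwise, at 632.1 to 672.6 CPM in Chat+ and 548.9 to 656.7 CPM in Chat-, with its lowest value in Chat- replicate 4. Most of that sum came from Ppib, Colgalt1 and P4hb, the last of which was named after its values were seen. Serpinh1, the collagen-specific chaperone, was at 1.59 to 5.27 CPM in Chat+, at 0.907 to 1.83 CPM in 4 Chat- libraries and at 4.37 CPM in Chat- replicate 4. The broadly expressed isomerase Ppib was at 188.9 ± 12.2 CPM in Chat+ and 177.6 ± 17.7 CPM in Chat-.

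Receptors for the members' products were also measured in these libraries. Of 28 receptors and partners, 21 were in the table and 16 had a difference above 0 (median 0.13, and 0.31 without Chat- replicate 4). Cxcr4, the receptor of CXCL12, was at 429.7 ± 212 CPM in Chat+ and 476.3 ± 239 CPM in Chat-, a log2 difference of -0.15 ± 0.43 (limma adjusted p = 0.999). The integrin chain Itga4, a receptor for osteopontin and VCAM1, was at 428.5 ± 85.9 and 447.6 ± 189 CPM. Cd38, a ligand of PECAM1, was at 285.0 ± 42.9 and 282.5 ± 59.6 CPM, and Ctnnb1, the catenin that binds VE-cadherin, at 294.1 ± 14.2 and 281.7 ± 30.9 CPM. Itgb1, the β chain of the collagen-binding integrins among others, had a log2 difference of 0.55 ± 0.15 and did not pass (limma adjusted p = 0.468, and 0.203 without Chat- replicate 4). Of the collagen-binding α chains, Itga1, Itga2 and Itga11 had no row found, and Itga10 was at 1.09 to 7.82 CPM.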

How the data were processed

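RNA was extracted with a column kit and made into strand-specific Illumina libraries, per the labels' protocols. Reads were processed with cutadapt 2.6 and Salmon 0.14.2 on GRCm38.p6, as the submitters' processing notes list (per the submitters' processing notes, without further settings). For the annotation, strand setting and normalization tool nothing is given in the sources used here. The deposited values are log2 values: all libraries share the lowest value, -3.1228, and with that offset (0.1148 CPM, 3 reads at the mean depth of 26130000) removed they sum to 1000000 CPM. Genes of low level may thus have been left out before deposit, since each listed gene had at least 10.22 estimated reads in 5 libraries. Depth was estimated from the step between low values. Whole reads were not recovered (13.5% to 37.8% of values under 3 CPM were whole within 0.001), so no count model was run. Library totals limit precision to a few reads for Cdh5.

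Ensembl identifiers were matched to GRCm38 symbols for 14374 of 14450 rows. The test was limma 3.58.1 in R 4.3.3 on the deposited log2 values (lmFit, eBayes with trend, group only, two-sided, Benjamini-Hochberg over 14450 genes, threshold 0.05), tested on simulated data. A filter of 10 reads in 5 libraries removed 0 genes. Fold changes on this scale understate those of low genes. The members and lists were chosen with earlier results of these data known. Genes named from a list are the 2 with the smallest p and the 2 (receptors: 4) with the highest level, or fewer; a gene at 0 or missing that defines a cell type is also named. Alternatives covered the pseudocount, filters, scaling, trend, library weights, replicate block and each library left out.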

Additional observations from a re-analysis of the deposited data

Results flagged for a closer look

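In 7 of 16 sets of 5 libraries (8 members in each group), 1 library lay far from the others by Dixon's ratio, the gap to the nearest library over the range, whose critical value is 0.71. About 1 in 20 such sets is marked by chance if values are normally distributed, which was not tested for these CPM values. All 7 were Chat- replicate 4. It was the highest Chat- library for Col1a1 (110.8 CPM, ratio 0.954), Col1a2 (99.2 CPM, 0.954), Col3a1 (92.7 CPM, 0.954), Spp1 (49.0 CPM, 0.938), Sparc (51.9 CPM, 0.966) and Cdh5 (5.44 CPM, 0.723). It was the lowest for Pecam1 (177.4 CPM, 0.713). These genes were read in the same library and are not independent of each other.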

How the results depend on the processing

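The log2 differences of Col1a1, Col1a2, Col3a1, Spp1 and Sparc stayed above 0 in 22 alternatives, from 0.37 to 1.34, 0.29 to 1.20, 0.50 to 1.46, 0.38 to 1.37 and 0.70 to 1.54 with 1 library left out, the highest without Chat- replicate 4. Leaving out 1 library gave -0.27 to 0.24 for Cxcl12, -0.49 to 0.40 for Cdh5 and -0.104 to 0.065 for Pecam1. The number of members past the threshold was 0 with each library left out, and 4 with a replicate block and without Chat- replicate 4, where Col1a1 was at 1.72 (limma adjusted p = 0.0286), Col1a2 at 1.53 (0.0148), Col3a1 at 1.79 (0.0206), Sparc at 1.82 (0.00777) and Spp1 at 1.66 (0.0514). In that fit Cdh5 was at 0.76 and Pecam1 at -0.10. Chat+ replicate 4 was alone in its block there and added nothing to the group differences. Both libraries numbered 4 were thus in effect left out of that fit. Whether the replicate numbers pair the libraries is not known: same-numbered deviations correlated from -0.202 to 0.226, below the level set for using the block in the main test, and 3 of 5 Chat+ libraries were nearest to their own number. With the block alone 6 genes and 0 members passed. The number of genes past the threshold, 1 in the main test, was 3 without the trend, 105 with library weights and 82 with the block and without Chat- replicate 4. It was 1 to 6 with 1 library left out (6 without Chat+ replicate 5 or Chat- replicate 4, 2 without Chat- replicate 1 or 3). The cause was not tested. Cxcl12 turned to -0.01 with log2(CPM + 1), -0.019 with median-ratio scaling and -0.14 with quantile normalization. Pecam1 turned to -0.023 with median-ratio scaling and -0.075 with library weights. Alternatives chosen after seeing the data included median-ratio scaling without Chat- replicate 4 (2 genes, Cdh5 0.38, Pecam1 -0.12) and quantile normalization without it (Cdh5 0.18, Pecam1 -0.086). A further one left out the 3 libraries with the most genes at the lowest value (17 genes, 0 members, Pecam1 -0.11). In that fit the 5 bone matrix genes were at 0.80 to 1.18 (limma adjusted p of 0.278 to 0.712).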
